A study of Homo sapiens with 8 samples.

Results

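The 7 genes described here are PAX2, PAX5, PAX8, SLC6A5, LBX1, LHX1 and LHX5, out of 60286 genes in the deposited matrix. They were chosen by name, as transcription factors and a transporter tied to glycinergic interneurons, because earlier results of these data showed them to differ between AcCoc and Vehic. That contrast is therefore described below without a test. The matrix held single-cell RNA from 43693 cells of neural cultures grown from H1, a widely used line of human embryonic stem cells. The series set flat (2-D) beside 3-D cultures and names dopamine, cocaine and morphine as exposures. The 8 samples were sublibraries of 1 pool of barcoded cells, so the groups come from 46 culture tags in the cell names. Each tag spells out its culture arrangement, its treatment where there was one, and a running number. Arrangements 2DCocu (12 tags) and 3DFusi (10 tags) carried the treatments AcCoc, AcMor and Vehic, with 4 tags each in 2DCocu and with 4 AcCoc, 3 AcMor and 3 Vehic tags in 3DFusi. Arrangements 2DMono and 3DMono carried AcDop, AcMor and Vehic with 2 tags each. The arrangements 2DProto2Fjo, 2DProto3Wu and 2DProto4Nic (2 tags each) and 3DProto1For and 3DProto2Xia (3 tags each) had no treatment tag. All groups share the H1 line. The labels define neither the tags, the doses, the times nor whether numbered tags were separate cultures, so n counts tags and p-values measure the spread between tags only. Tags held 317 to 1959 cells and 3624668 to 58777177 counts, with a median of 12776 counts per cell. Of the cells, 4894 had a barcode that also occurred in another sublibrary, and they were kept.

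Inhibitory neurons of the dorsal spinal cord and hindbrain release GABA, glycine or both. PAX2 marks these cells as they leave the cell cycle and is needed for their inhibitory identity, and the LIM homeodomain factors LHX1 and LHX5 maintain it. LBX1 acts earlier, in the dorsal progeny from which many of them arise, and SLC6A5 encodes GLYT2, the transporter that loads glycine into glycinergic terminals. PAX5 and PAX8 are the closest relatives of PAX2 and share its paired DNA-binding domain. PAX2 and PAX8 also act in the developing kidney and ear, and LHX1 and LHX5 are also made by Cajal-Retzius neurons of the cortex.

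On hg38, with the GENCODE v29 annotation, PAX2 (ENSG00000075891) lies on chromosome 10 from 100735603 to 100829941 on the plus strand, and SLC6A5 (ENSG00000165970) on chromosome 11 from 20599400 to 20659285, also on the plus strand. PAX5 (ENSG00000196092) occupies chromosome 9 from 36833275 to 37034185, PAX8 (ENSG00000125618) chromosome 2 from 113215997 to 113278950, LBX1 (ENSG00000138136) chromosome 10 from 101226195 to 101229794 and LHX5 (ENSG00000089116) chromosome 12 from 113462034 to 113472280, all on the minus strand. LHX1 (ENSG00000273706) lies on chromosome 17 from 36936785 to 36944612 on the plus strand. Values are sums over whole genes. The sources used here do not say whether strand was used in counting, and neighbours such as PAX8-AS1, LHX1-DT, LHX5-AS1 and LBX1-AS1 are separate genes in the annotation. Without strand, reads from stretches where such a neighbour overlaps a gene cannot be told apart.

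The sequences upstream of PAX2 and SLC6A5 are shown because the results below turn mainly on these 2 genes. They come from RefSeq (GRCh38.p14) and stop before the first base that GENCODE v29 gives for the gene, at chr10:100735146-100735395 (plus strand, 250 bases) and chr11:20599358-20599399 (plus strand, 42 bases). Capitals mark the letters CANNTG, the core that basic helix-loop-helix factors bind, which reads the same on both strands.
PAX2: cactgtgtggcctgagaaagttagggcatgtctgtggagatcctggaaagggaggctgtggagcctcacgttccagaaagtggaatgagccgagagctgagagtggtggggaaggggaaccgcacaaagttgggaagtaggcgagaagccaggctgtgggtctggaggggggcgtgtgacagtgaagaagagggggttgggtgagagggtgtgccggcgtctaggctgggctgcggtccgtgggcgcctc
SLC6A5: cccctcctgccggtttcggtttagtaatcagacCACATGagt
The PAX2 stretch held 0 such matches and the SLC6A5 stretch 1. Among 35116 RefSeq promoters, 61.8% held CANNTG in the same 250 bases and 14.9% in the first 42, so a match is common. The letters TGGGAA, the core of the RBPJ site, occurred 1 time in the PAX2 stretch on either strand and in 20.8% of promoters of that length. These matches describe letters only.

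The 7 genes were carried by different cells of the 9 arrangements. Levels are given in CPM, a gene's counts per 1000000 counts of the tag, and are compared within a gene only. In such sums, fewer cells of a type and less RNA per cell cannot be told apart. PAX2 was detected (an entry of at least 0.5) in 2879 of 43693 cells. Its mean level was 52.8 ± 13.8 CPM (SD, n = 12) in 2DCocu and 18.7 ± 18.4 CPM (SD, n = 10) in 3DFusi, against 2.6 ± 1.56 CPM (SD, n = 6) in 2DMono and 5.54 ± 1.62 CPM (SD, n = 6) in 3DMono. The 12 tags of 2DCocu, from 31.4 to 71.3 CPM, all lay above the 12 tags of 2DMono and 3DMono, from 0.984 to 8.23 CPM. Without a treatment tag, 2DProto2Fjo (1.24 and 1.74 CPM) and 2DProto4Nic (1.49 and 4.56 CPM) were low and 2DProto3Wu (15.6 and 37.6 CPM) was intermediate. Tags of 1 arrangement could differ far more than arrangements did: 3DProto1For had 118, 71.9 and 1.66 CPM, and 3DProto2Xia had 1.05, 49.7 and 1.75 CPM. In order of means, 3DProto1For (63.8 CPM) stood first and 2DCocu next, but their ranges overlapped. The ranges of 2DProto3Wu, 3DFusi and 3DProto2Xia overlapped one another as well, as did those of 3DMono, 2DProto4Nic and 2DMono.

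SLC6A5, the glycine transporter gene, was high in every tag of 2DCocu and in 1 tag of 3DProto1For. It averaged 29.4 ± 9.44 CPM (SD, n = 12) in 2DCocu, with a lowest tag of 10.1 CPM. In 3DFusi it averaged 1.56 ± 1.92 CPM (SD, n = 10) and its highest tag had 6.77 CPM. The tags of 3DProto1For had 25, 3.09 and 0.276 CPM, following the order of PAX2 in the same tags, and the 2DMono and 3DMono tags stayed between 0.213 and 1.89 CPM. In 2DProto3Wu, where PAX2 was present, SLC6A5 had 0.639 and 0.773 CPM.

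LHX1 and LHX5 had a different order over arrangements from PAX2. LHX1 was highest in 2DProto2Fjo (17.6 and 21.1 CPM), where PAX2 was near its lowest, and averaged 3.44 ± 1.22 CPM (SD, n = 12) in 2DCocu and 5.74 ± 4.84 CPM (SD, n = 10) in 3DFusi. LHX5 also had its highest mean in 2DProto2Fjo (8.7 and 7.81 CPM). It averaged 2.54 ± 0.77 CPM (SD, n = 12) in 2DCocu and 2.88 ± 1.98 CPM (SD, n = 10) in 3DFusi, ranges that overlapped. PAX5 averaged 1.39 ± 0.619 CPM in 2DCocu (SD, n = 12) and 3.14 ± 1.87 CPM in 3DFusi (SD, n = 10), and PAX8 averaged 2.13 ± 1.27 and 1.45 ± 1.25 CPM in the same tags. The highest single tag of both PAX5 (12.3 CPM) and PAX8 (23.4 CPM) belonged to 3DProto1For. LBX1 was the scarcest, with a count in 92 cells of the series. It reached 1.09 CPM in 2DCocu and was at 0 in all 6 tags of 2DProto2Fjo, 2DProto3Wu and 2DProto4Nic.

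**Figure D1:**
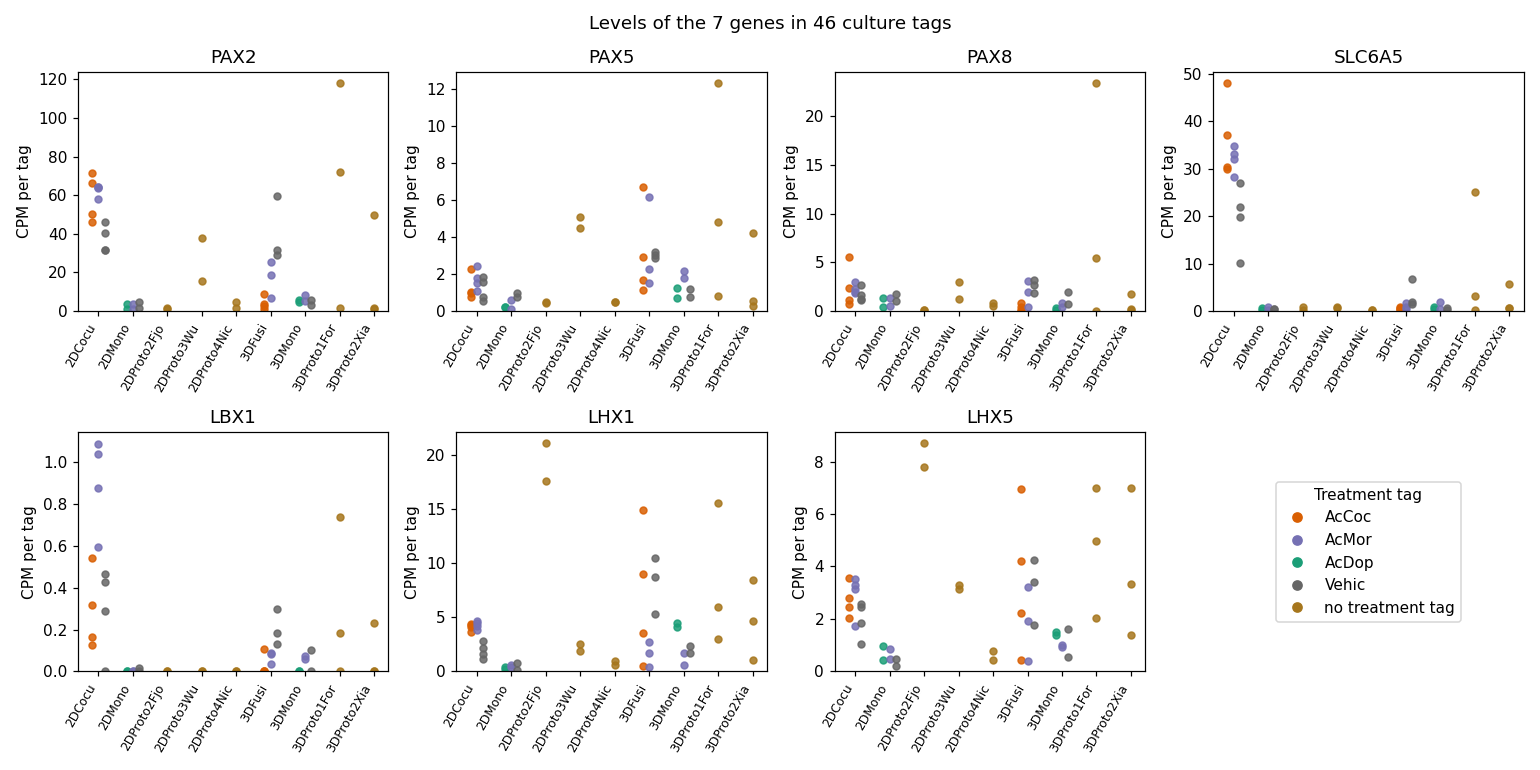
Level of each of the 7 genes (vertical axis, CPM) in every culture tag, by arrangement (horizontal axis) and coloured by treatment tag; each point is 1 tag and each panel has its own linear scale. SLC6A5 is high in the 12 tags of 2DCocu (10.1 to 48 CPM) and in 1 tag of 3DProto1For (25 CPM), and LHX1 is highest in the 2 tags of 2DProto2Fjo.

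Cells were grouped into 43 clusters without using the 7 genes or the related lists, and the clusters show which cells carried PAX2. Cluster 14, of 1148 cells, 99.5% of them from 2DCocu, had PAX2 at 395 CPM with a count in 46.5% of cells, and SLC6A5 at 242 CPM in 38.8% of cells. SLC6A5 and PAX2 were its first genes by fold, ahead of SLC30A3, a zinc transporter gene, SV2B, a synaptic vesicle gene, LAMP5 and ROBO3, a guidance receptor of commissural neurons. LHX1 (26.3 CPM), LHX5 (19.3 CPM) and LBX1 (3.57 CPM) were present in the same cluster. GAD2, one of the enzymes that make GABA, had a count in 51.2% of its cells. Only 2 of 8 GABAergic markers passed the marker rule there, so the cluster has no name here. For comparison, in cluster 26, in which 7 of 8 GABAergic markers passed, PAX2 was found in 0.139% of cells at a median of 7434 counts per cell, against 9748 in cluster 14.

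In 2DCocu, cluster 14 held 68.5% of all PAX2 counts, 74.3% of SLC6A5 counts, 69.1% of LHX1 counts, 67.7% of LHX5 counts and 68.7% of LBX1 counts, in 11% of the cells. Cluster 29 held another 26% of the PAX2 counts. In it 95.9% of cells were called doublets, that is, barcodes with the mixed profile of more than 1 cell. These shares are pooled over tags and differed by treatment. Cluster 14 held 18.8 to 61.3% of the PAX2 counts of Vehic tags, 74.4 to 82.4% in AcMor and 67.4 to 82.5% in AcCoc. Cluster 29 held 32.7 to 74.7% in Vehic, 14.7 to 21.6% in AcMor and 8.99 to 25.9% in AcCoc.

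In 3DFusi the PAX2 counts were spread over more kinds of cell. Cluster 5 (1889 cells from several arrangements, PAX2 96.5 CPM, SLC6A5 15.3 CPM, GLRA3 and HOXB-AS3 among its first genes) held 27.6% of them, cluster 10 held 18.4%, cluster 12, with 95.4% doublets, held 13.7% and cluster 9 held 9.03%. Cluster 10 passed 8 of 8 markers of ciliated or ependymal cells and cluster 9 passed 8 of 8 mesenchymal markers. Over the cells of all arrangements, their PAX2 levels were 41.9 and 35.4 CPM, with SLC6A5 at 0.354 and 1.75 CPM. PAX2 also stood at 64.8 CPM in cluster 33, which passed 8 of 8 muscle markers, at 39 CPM in cluster 22 and at 40.6 CPM in cluster 39, again with SLC6A5 at 1.73 CPM or less. Without doublets PAX2 was 43.2 CPM in cluster 10 and 42 CPM in cluster 22, but 44.9 CPM in cluster 33, 12.2 CPM in cluster 9 and 3.38 CPM in cluster 39, so the values of the latter 2 came mostly from called doublets. In cluster 14 it was 409 CPM and in cluster 5 it was 112 CPM without them. Cluster 5, by contrast, held 52.2% of the SLC6A5 counts of 3DFusi. PAX2 and SLC6A5 counts thus lay mainly in the same clusters in 2DCocu, and in partly different ones in 3DFusi. The 3DFusi shares are pooled over tags, and tag Vehic 1 held 285 of the 704 PAX2 cells. Cluster 9 had PAX2 at 295 CPM in that tag, on 23 cells, and at 0 to 34.5 CPM in the other tags of 3DFusi.

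LHX1 and LHX5 were highest in cluster 19 (78.6 and 34.9 CPM), where PAX2 had 3.78 CPM. RELN and TP73, known from Cajal-Retzius neurons, were among the first genes of that cluster. It held 35.2% of the LHX1 counts and 32.5% of the LHX5 counts of 3DFusi.

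**Figure D2:**
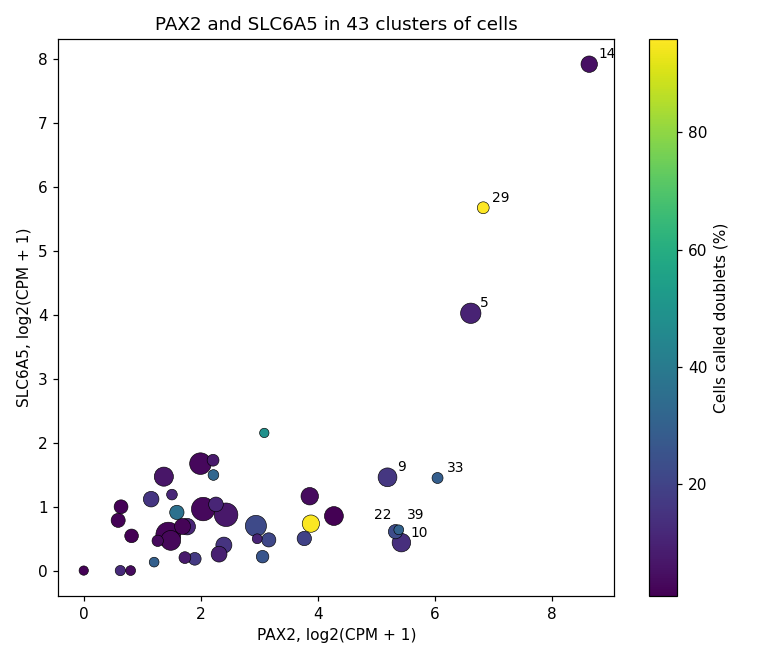
PAX2 (horizontal axis) against SLC6A5 (vertical axis), both as log2(CPM + 1), in the 43 clusters; point size grows with the number of cells and colour gives the percentage of cells called doublets. Clusters 14, 29 and 5 are high in both genes, while clusters 9, 10, 22, 33 and 39 have PAX2 with little SLC6A5, in clusters 9 and 39 mostly from cells called doublets.

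The share of PAX2 cells that also held an SLC6A5 count showed the same contrast by tag. It was 60.6 ± 10.6% (SD, n = 12; 39.5 to 78.4%) in 2DCocu and 5.75 ± 8.54% (SD, n = 10; 0 to 28.2%) in 3DFusi. The ranges did not overlap. The shares are given as a description, since they restate the levels of both genes in tags that the rule used, detection depends on depth, and 1 tag of 3DFusi had 4 PAX2 cells. Over all cells, 65% of SLC6A5 cells, 70.7% of the 92 LBX1 cells and 34.1% of LHX1 cells also held PAX2. Among cells without PAX2, 0.941% held SLC6A5.

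In the comparison of AcMor with Vehic in 2DCocu, PAX2 and LHX1 were higher in AcMor. The 4 Vehic tags are those of the AcCoc contrast that chose the genes, so the p values here are not independent of that choice. PAX2 had 64.1, 64.4, 58.2 and 63.5 CPM in the AcMor tags and 40.5, 31.4, 31.6 and 46 CPM in the Vehic tags. Every AcMor tag lay above every Vehic tag. The log2 fold change was 0.79 (SE 0.16), with an adjusted p of 0.0293 in edgeR's quasi-likelihood test. LHX1 had 4.51, 4.68, 3.82 and 4.23 CPM in AcMor against 2.15, 1.58, 1.15 and 2.79 CPM in Vehic, again without overlap, with a log2 fold change of 1.24 (SE 0.23) and an adjusted p of 0.0212. SLC6A5 also separated the groups, at 28.3, 32, 33 and 34.8 CPM against 27, 22, 10.1 and 19.9 CPM, but its log2 fold change of 0.76 (SE 0.22) had an adjusted p of 0.101.

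LHX5, PAX5 and PAX8 overlapped between AcMor and Vehic in 2DCocu. Their log2 fold changes were 0.66 for LHX5 (SE 0.28, adjusted p = 0.281), 0.57 for PAX5 (SE 0.41, adjusted p = 0.56) and 0.49 for PAX8 (SE 0.49, adjusted p = 0.694). LBX1 had 1.04, 0.878, 1.09 and 0.597 CPM in AcMor and 0.429, 0, 0.288 and 0.465 CPM in Vehic, from 38 and 14 counts in all, without overlap. It did not pass the filter on low counts, so 6 of 7 genes were tested. Of these 6, 2 were called, and of all 21032 genes tested 0.975% were called. Since the rule used the Vehic tags, nothing is read from setting counts or medians of the 6 beside those of all genes. The median log2 fold change was 0.71 over the 6 genes and 0.01 over all genes. All AcMor tags were higher than all Vehic tags for 3 of the 6 tested, against 2.67% of all genes. Markers of other neurons moved alongside: STMN2, a general neuronal gene, had 108 to 157 CPM in AcMor and 38.5 to 96.8 CPM in Vehic, and SLC17A6, the vesicular glutamate transporter of excitatory neurons, had 14.4 to 21.7 CPM and 5.85 to 12.6 CPM. Neither overlapped, and their part in the PAX2 and LHX1 values was not tested.

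The call of PAX2 was lost without most single tags. Leaving out any 1 tag other than Vehic 4 raised its adjusted p to between 0.054 and 0.11, while the log2 fold change stayed between 0.69 and 0.91. LHX1 lost its call without AcMor 1, 2 or 4 or without Vehic 3, with adjusted p up to 0.0767. In 1 fit over the 4 treated arrangements neither was called: PAX2 was at 0.77 (adjusted p = 0.844) and LHX1 at 1.21 (adjusted p = 0.824).

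Doublets were unevenly spread. Of the cells with PAX2, 38.4 to 54.8% were called doublets in the Vehic tags of 2DCocu, 20.6 to 28.2% in AcMor and 11 to 25.5% in AcCoc, while among all cells the range was 6.86 to 13.8%. Without doublets PAX2 had 56 to 65.3 CPM in AcMor and 10 to 32.9 CPM in Vehic, and the log2 fold change was 1.64 (SE 0.24, adjusted p = 0.000953). That of LHX1 became 1.64 as well (SE 0.26, adjusted p = 0.00115). Both p values rest on the Vehic tags of the choice, so they are not independent of it. Whether the higher doublet share of PAX2 cells in Vehic comes from the scoring itself was not tested.

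The share of PAX2 cells and the level within them were both higher in the AcMor tags of 2DCocu than in Vehic, without overlap in either. The shares could not pass the test after adjustment. Over 14 tests, with smallest exact permutation p values of 0.0286 in 2DCocu and 0.1 in 3DFusi, no adjusted p could fall under 0.05. The adjusted values of the shares therefore decide nothing. Within cells that held PAX2, its level was 428 to 495 CPM in AcMor and 198 to 292 CPM in Vehic. Called doublets were kept in this level and, as given above, made up more of the PAX2 cells in Vehic. Their part in the level was not tested. Cells with a PAX2 count made up 11.3 ± 1.13% of AcMor tags and 6.8 ± 1.09% of Vehic tags (SD, n = 4 each). As the Vehic tags are those of the choice, the p values that follow are not independent of it. The difference of 4.47 percentage points had an exact permutation p of 0.0286, two-sided, the smallest that 4 against 4 tags allow, and 0.1 after adjustment over 14 tests. The same p values held for SLC6A5 (8.48 against 4.99%), LHX1 (4.07 against 1.69%) and LBX1 (1.18 against 0.358%). Cluster 14 made up 12.4 to 14.9% of the cells of AcMor tags and 4.38 to 9.57% of Vehic tags. Inside it PAX2 had 421 to 488 CPM in AcMor and 172 to 288 CPM in Vehic, a log2 fold change of 0.99 (SE 0.16, in a fit on that cluster added after the data were seen), given as a description because the Vehic tags were used in the choice. This value mixes share and level, since not all cells of the cluster held PAX2. Outside it the PAX2 level was 11.4 to 18.5 CPM in AcMor and 17.2 to 32.8 CPM in Vehic.

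The genes that handle inhibitory transmitters gave 1 call among 5 tested for AcMor in 2DCocu. GAD2 rose by 0.74 on the log2 scale (SE 0.16, adjusted p = 0.042), while GAD1 (0.61, adjusted p = 0.0697) and SLC32A1, the vesicular transporter of GABA and glycine (1.12, adjusted p = 0.105), did not pass. Of 6 glycine receptor genes, 0 were called, and their median log2 fold change was 0.38. Of 10 genes of dorsal inhibitory specification 7 were tested and 0 called, with TFAP2A at 1.17 (SE 0.32, adjusted p = 0.0915). The other 9 lists also had 0 calls, and among all 21032 genes 144 were higher and 61 lower.

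In 3DFusi, against the Vehic tags that the rule also used, AcMor went with lower values, none of which passed the test. PAX2 had 6.56, 25.3 and 18.8 CPM in AcMor and 59.6, 29 and 31.7 CPM in Vehic. The groups did not overlap, but the log2 fold change of -1.23 had an SE of 0.61 and an adjusted p of 1. LHX1 had 0.405, 2.75 and 1.7 CPM against 10.5, 5.32 and 8.76 CPM, also without overlap (log2 fold change -2.26, SE 0.90, adjusted p = 1). The value for SLC6A5 was -1.52 (SE 0.59), with overlapping tags, and LHX5 (-0.61), PAX5 (0.19) and PAX8 (-0.34) overlapped too. Of all 23679 genes tested in edgeR 0% were called, with 177 at an unadjusted p under 0.05, and 4.06% had all AcMor tags below all Vehic tags, beside 2 of the 6 tested here, from which nothing is read for the same reason. With 3 against 3 tags the smallest exact permutation p is 0.1, so no share of cells could pass. Cells with PAX2 made up 5.77 ± 2.05% in AcMor and 11.5 ± 5.29% in Vehic (SD, n = 3 each; exact permutation p = 0.2, adjusted 0.28). Their difference of -5.7 percentage points became -2.71 without Vehic 1. With 1 tag left out the log2 fold change of PAX2 ran from -1.62 to -0.70, the latter without Vehic 1, and that of SLC6A5 from -2.07 to -0.74, the latter without Vehic 4.

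Whether the AcMor difference itself differed between 3DFusi and 2DCocu was tested in a fit added after the data were seen. It uses the Vehic tags of the choice, so its p values are not independent of that choice. The difference of the log2 fold changes was -2.0 for PAX2 (SE 0.58, adjusted p = 1), -3.47 for LHX1 (SE 0.90, adjusted p = 0.939) and -2.18 for SLC6A5 (SE 0.57, adjusted p = 0.939). LBX1 passed the filter on low counts only through the AcMor tags of 2DCocu, so its value of -3.13 (SE 0.99) is given without a test. Of the 7 genes 0 were called, as were 0% of all 23504 genes, of which 863 had an unadjusted p under 0.05 in edgeR.

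AcCoc against Vehic is the contrast the genes were selected on, so the values are a description. In 2DCocu, PAX2 had 50.1, 46, 66.1 and 71.3 CPM in AcCoc, all at or above the highest Vehic tag, whose value also rounded to 46 CPM (log2 fold change 0.68, SE 0.16). SLC6A5 had 30, 30.3, 37.1 and 48 CPM (0.92, SE 0.22) and LHX1 had 4.27, 3.67, 4.41 and 4.06 CPM (1.14, SE 0.23), all above Vehic. LHX5 (0.46), PAX5 (0.11) and PAX8 (0.55) overlapped. STMN2, at 120 to 177 CPM, and SLC17A6, at 20.8 to 29.9 CPM, were also above all Vehic tags, and their part in these values was not tested. Over all genes, 5.32% had every AcCoc tag above every Vehic tag. Both treatments were set against the same 4 Vehic tags, so they are not independent. Without doublets the PAX2 value for AcCoc was 1.46.

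In 3DFusi, PAX2 had 2.39, 1.12, 8.93 and 3.57 CPM in AcCoc, below the 29 to 59.6 CPM of Vehic (log2 fold change -3.30, SE 0.60). SLC6A5 had 0.281, 0.67, 0.766 and 0.42 CPM against 2, 1.55 and 6.77 CPM (-2.63, SE 0.60). PAX8 had 0.45, 0, 0.817 and 0.105 CPM against 1.82, 2.66 and 3.19 CPM (-2.46, SE 0.70). These 3 genes had every AcCoc tag below every Vehic tag, as did 1.47% of all genes. LHX1, at 0.535, 3.57, 14.9 and 9.03 CPM, spanned the Vehic range (-0.28, SE 0.79), and LHX5 (0.18) and PAX5 (0.01) also overlapped. Among cells with PAX2 in 3DFusi, 16.3 to 55.4% were called doublets in Vehic, 24.5 to 55.2% in AcMor and 26.2 to 77.8% in AcCoc. Cluster 5 made up 10.8 to 11% of the cells in the Vehic tags of 3DFusi, 2.07 to 4.17% in AcMor and 0.676 to 6.53% in AcCoc. Within it, 3 of the 4 AcCoc tags had a PAX2 level of 0, on 6, 6 and 39 cells.

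**Figure D3:**
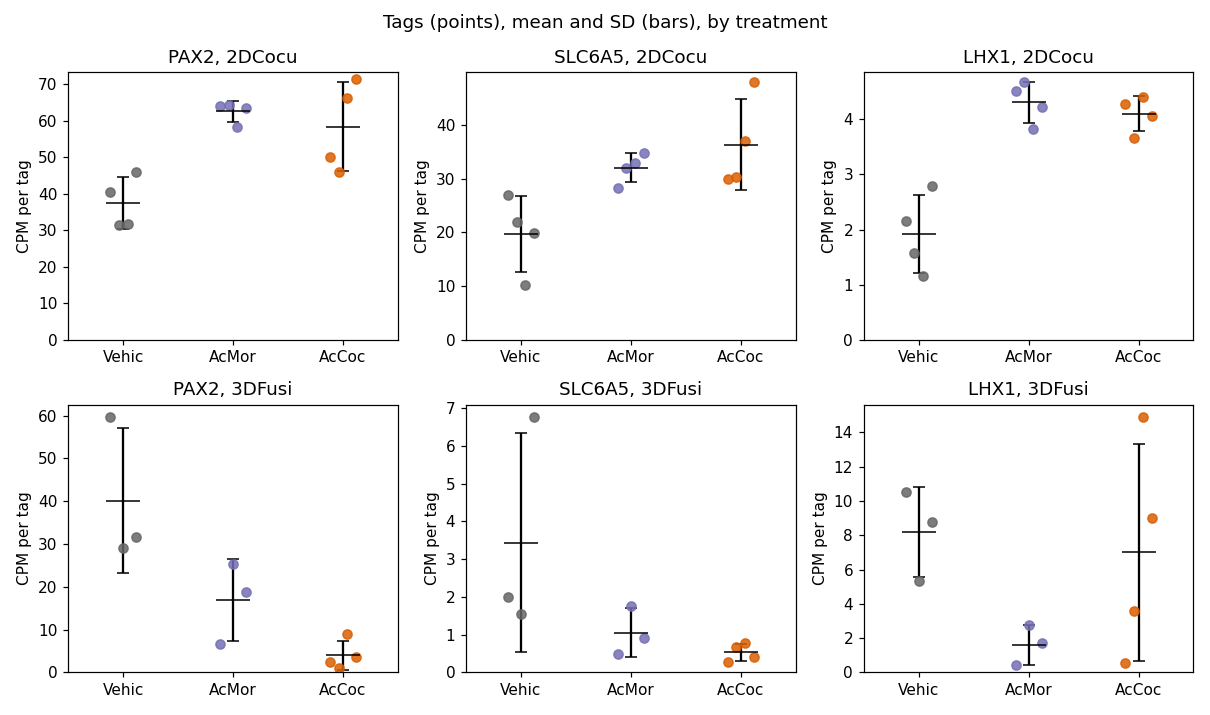
Levels of PAX2, SLC6A5 and LHX1 (vertical axis, CPM) in the Vehic, AcMor and AcCoc tags of 2DCocu (upper row) and 3DFusi (lower row); points are tags, and bars give the mean and SD of 3 or 4 tags. In 2DCocu the treated tags lie at or above the highest Vehic tag in all 3 genes, and in 3DFusi PAX2 lies below Vehic in both treatments while LHX1 in AcCoc spans the Vehic range.

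In the Mono arrangements the levels were low. PAX2 in 2DMono had a log2 fold change of -0.44 for AcDop (SE 0.71, adjusted p = 1) and -0.74 for AcMor (SE 0.71, adjusted p = 0.872), and only PAX2 and PAX8 passed the filter there. In 3DMono it was 0.20 for AcDop (SE 0.41, adjusted p = 1) and 0.67 for AcMor (SE 0.40, adjusted p = 0.682). PAX8 was at -2.63 for AcDop in 3DMono (SE 0.84), with 0.0943 and 0.273 CPM against 0.706 and 2 CPM in Vehic. It may owe its pass of the filter to the groups where it is higher, so it is given without a test. PAX5 and SLC6A5 were at 1.2 and 1.59 for AcMor in 3DMono (adjusted p = 0.504 and 0.588). In each of these 4 comparisons 0% of all genes were called by edgeR. At an unadjusted p under 0.05 there were 467 and 1247 genes for AcDop and AcMor in 2DMono and 740 and 1925 in 3DMono, and DESeq2 called 13, 19, 17 and 174 in the same order. With 2 tags a group, these fits leave few degrees of freedom.

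Format was compared over all tags with treatment as a covariate. For 3DFusi and 2DCocu these include the AcCoc and Vehic tags on which the genes were chosen, so the values over all tags are a description. SLC6A5 was lower in 3DFusi by the widest margin (log2 fold change -4.51, SE 0.41), followed by LBX1 (-2.36, SE 0.50) and PAX2 (-1.91, SE 0.45), while PAX5 was at 1.11 (SE 0.31), PAX8 at -0.72, LHX1 at 0.49 and LHX5 at -0.005. Of all 23504 genes 48.3% were called.

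The AcMor tags, 3 of 3DFusi and 4 of 2DCocu, were not part of the AcCoc contrast. The genes were chosen with earlier results of these data known, so p values from these tags may still depend on the choice. A fit on the AcMor tags alone was added after the data were seen. In it PAX2 was lower in 3DFusi (-1.93, SE 0.34, adjusted p = 0.0038), and PAX5 (0.93, adjusted p = 0.221) did not pass. The other 5 genes passed the filter on low counts only through the 2DCocu tags, so their values are given without a test. SLC6A5 was at -4.91 (SE 0.33), with 0.486, 1.76 and 0.92 CPM in 3DFusi against 28.3 to 34.8 CPM in 2DCocu. LHX1 was at -1.41 (SE 0.42), PAX8 at -0.31, LHX5 at -0.70 and LBX1 at -3.68, the last on 4 counts in 3DFusi and 38 in 2DCocu. In this fit 19.2% of all 21676 genes were called. Between the Vehic tags alone, which the rule used, PAX2 was at 0.07 (SE 0.29), SLC6A5 at -2.75 (SE 0.47) and LHX1 at 2.05 (SE 0.35). The difference between these 2 fits is the AcMor difference tested above, which was not called.

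The related lists, over all tags, had calls in different directions. Their counts stand beside the 48.3% of all genes called in this comparison, and several lists are near that share, such as 4 of 7 genes of dorsal inhibitory specification. The fit treats the tags of 3DFusi as independent, although same-numbered ones were correlated. Of 6 glycine receptor and scaffold genes, 4 were lower in 3DFusi and 1 higher: GLRA2, an embryonic receptor subunit, was at -1.89 (SE 0.23, adjusted p = 4.86e-07), while GPHN, the gephyrin scaffold, was at 0.25. Of 5 genes of inhibitory transmitter handling, 4 were higher, including GAD1 (1.53) and SLC32A1 (1.88), and SLC6A9, the glial glycine transporter, was lower (-0.87, SE 0.14, adjusted p = 2.46e-05). All 9 tested of 10 forebrain GABAergic genes were higher in 3DFusi, with a median of 3.27 against 0.03 over all genes, DLX1 leading at 3.93. Within 2DCocu alone only 5 genes of this list passed the filter on low counts. The rest entered through 3DFusi, where they were higher, so their direction is not read as a result. Of 10 genes of dorsal inhibitory specification 7 were tested, 2 higher (among them SALL3 at 0.78) and 2 lower (TFAP2B at -1.35 and PRDM13 at -3.52). Of 6 tested hindbrain HOX genes 5 were higher and 1 lower, but only 2 genes of that list passed the filter within 2DCocu, so the same limit holds. Of 6 Cajal-Retzius genes 5 were higher. The remaining lists had calls in both directions (dorsal excitatory, ventral inhibitory, midbrain-hindbrain boundary, nephron and renal) or in 1 (otic, 3 higher of 4 tested, and Purkinje, 3 lower of 5).

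Between 3DMono and 2DMono, PAX2 (log2 fold change 0.80, SE 0.39, adjusted p = 0.131), LHX5 (0.74, adjusted p = 0.104), PAX8 (-0.89, adjusted p = 0.133) and SLC6A5 (0.46, adjusted p = 0.446) did not pass the test. LHX1, at 2.39 (SE 0.46), and PAX5, at 1.24 (SE 0.46), passed the threshold, but both had passed the filter on low counts only through the 3DMono tags, so no p is given for these values. They are 2 of the 6 genes in the fit, with 37% of all 22671 genes called, and nothing is read from that count. Without doublets PAX2 was called (1.46, adjusted p = 0.00809). PAX5 was at 1.2 without doublets and at -0.06 between the Vehic tags alone.

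Cells that held PAX2 were also compared with other inhibitory cells of the same tag. Inhibitory cells were those with a count of GAD1, GAD2 or SLC32A1, and 26 tags had at least 20 cells of each kind, 1516 with PAX2 and 7066 without. SLC6A5 was higher in the PAX2 cells, at 129 ± 135 against 3.45 ± 3.63 CPM (SD, n = 26 tags), with a log2 fold change of 4.91 (SE 0.28), and it was higher in 24 of 26 tags. LHX1 was higher at 19.2 ± 19.7 against 4.19 ± 4.18 CPM (1.95, SE 0.27), in 23 of 26 tags. The other 4 genes did not pass the filter on low counts. Both that passed may owe it to the group where they are high, so they are given without a test. Over all 13052 genes 17.6% were called. Cells with PAX2 had a median of 16658 counts and 35.4% doublets, against 15879 counts and 20.2% in the others. Within tags the depth gap was wider: in 20 of 26 tags the PAX2 cells had the higher median, and the ratio of medians ran from 0.77 to 3.11. SLC6A5 was at 6.03 (SE 0.40) without doublets and at 4.28 (SE 0.25) in cells thinned to 5000 counts, and LHX1 was at 2.80 (SE 0.30) without doublets.

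The PAX2 cells had more transcripts of glycine receptors and of dorsal factors. Of 6 genes on the glycine receptor list 5 were tested and 4 were higher: GLRA3 (1.13), GLRA2 (0.90), GLRA1 (0.37) and GPHN (0.35), while GLRB (0.42, adjusted p = 0.0542) did not pass. TFAP2A (2.01, SE 0.25) and TFAP2B (1.76, SE 0.22), factors of dorsal inhibitory interneurons, were higher, and SALL3 (-0.82) was lower. All 4 tested of 10 forebrain GABAergic genes were lower, among them DLX1 at -1.30, DLX2 at -1.28 and DLX5 at -1.17, with a median of -1.22 against -0.01 over all genes. GAD1 (-0.23), GAD2 (0.63) and SLC32A1 (0.51), which selected the cells, were not called. By the rule of a call with the same sign in every tag, 0 genes were higher and 1 was lower, CLSPN, a replication checkpoint gene (-1.01, SE 0.18). LAMP5 (2.74), ROBO3 (2.40) and SKOR1 (1.69) were among the largest changes and are named after their values were seen.

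**Figure D4:**
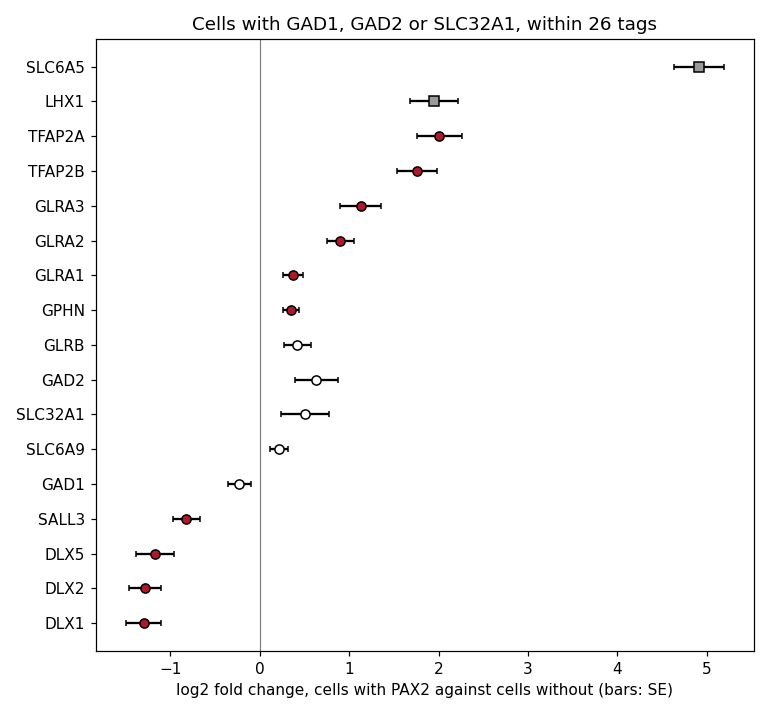
Log2 fold change (horizontal axis, with SE bars) between inhibitory cells with and without PAX2 for 17 listed genes (vertical axis), fitted within 26 tags; filled circles passed an adjusted p of 0.05, open circles did not, and grey squares are SLC6A5 and LHX1, given without a test. SLC6A5 lies farthest to the right at 4.91, and the forebrain genes DLX5, DLX2 and DLX1 lie farthest to the left.

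Over the 46 tags, the log2 levels of 20196 genes were correlated with that of PAX2 as a description. Pearson's r was 0.82 for SLC6A5, 0.73 for PAX8 and LBX1, 0.47 for PAX5, 0.36 for LHX1 and 0.32 for LHX5. Over the tags of the 4 treated arrangements alone it was 0.87 for SLC6A5, 0.73 for LBX1, 0.64 for PAX8, 0.62 for LHX5, 0.52 for LHX1 and 0.16 for PAX5, so the order of the last 3 depends on which tags enter. The genes most like PAX2, outside the 7, were SLC30A3 (0.83), HOTAIRM1 (0.80), ROBO3 (0.80), WNT3 (0.79) and SOX13 (0.79). The tags share arrangements and one pool of libraries, so they are not independent points.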

How the data were processed

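Single cells of H1-derived cultures were measured with a split-pool kit (Parse). Per the submitters' processing notes, the authors used Salmon 1.7.0 with alevin, Seurat 4.1.1 and hg38. The deposited values are expected counts, unscaled: 54.3% of entries are whole numbers. The number of detected genes per cell starts at 1006. Columns mapped to no sample numbered 0. The 8 sublibraries hold 41192 distinct barcodes, and 4894 cells share theirs with a cell of another sublibrary. Tags held 317 to 1959 cells and 3624668 to 58777177 counts. PAX2 over the 8 sublibraries was 18.2 to 23.9 CPM.

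Expected counts were summed per tag, rounded and tested with edgeR 4.0.16 (filterByExpr, TMM, robust quasi-likelihood, R 4.3.3) at a Benjamini-Hochberg adjusted p of 0.05, over all genes. DESeq2 was an alternative, and adjusted p values it gave as NA were left as NA. Clusters used Leiden at resolution 0.8 (2000 variable genes, 30 components, 20 neighbours). A marker passed in a cluster with a count in 10% of cells and a level 2-fold that of the others. Doublets were scored with 100 neighbours: 5901 cells (13.5%) were called and kept. The edgeR fit was checked on simulated counts laid out like the AcMor and Vehic tags of 2DCocu, drawn independently with the same dispersion for every gene. The other arrangements, the other fits and the permutation tests were not checked in that way. For the 2 format comparisons the filter by arrangement and treatment groups was run first. It was replaced by a design-matrix filter after results were seen and then set back, so both are reported. Tag numbers paired in 3DFusi (correlation of same-numbered deviations 0.136 to 0.557 in 9 pairs) and more weakly in 3DMono (0.061 to 0.23 in 6 pairs). They did not pair in 2DCocu (-0.285 to 0.111) or 2DMono (-0.126 to 0.113). Named genes are the 7 genes, the 12 lists (98 genes), genes called with the same sign in every tag and the 10 most like PAX2. The members and lists were chosen with earlier results of these data known. Some genes of the lists are counted but not reported here by name.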

Additional observations from a re-analysis of the deposited data

Results flagged for a closer look

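Among 35 groups of 4 to 10 values examined for a value far from the rest, 3 had one, and chance gives about 1 in 20. PAX2 in the AcMor tags of 2DCocu had 58.2 CPM in tag 3, with the nearest of the others at 63.5 CPM. LBX1 in the AcCoc tags of 3DFusi had 0.105 CPM in tag 4, from 1 count, with the other tags at 0. PAX5 had 2.57 CPM in 1 of the 8 sublibraries, with the next at 1.85 CPM.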

How the results depend on the processing

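For AcMor in 2DCocu, 205 genes were called. The count was 391 with no filter, 697 with DESeq2, 1268 without doublets, 0 in 1 fit over 4 arrangements, 70 in cells of cluster 14 (added after seeing the data) and 27 to 283 when each tag was left out. With the replicate number as a block it was 40, and LHX1 then had an adjusted p of 0.0561. In 3DFusi, where the numbers paired, the block changed no call. PAX2 for AcMor in 2DCocu was 0.77 (adjusted p = 0.844) in the 1 fit, 0.69 to 0.91 with each tag left out, and 1.46 for AcCoc without doublets. DESeq2 called SLC6A5 (0.75, adjusted p = 0.027), against the same Vehic tags on which the genes were chosen.

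For AcDop in 2DMono the count of 0 became 38 with no filter, 13 with DESeq2 and 0 to 2 with a tag left out. For AcMor in 2DMono it became 185, 19 and 0 to 3. For AcDop in 3DMono it became 145, 17 and 0 to 48, and 2 in the 1 fit. For AcMor in 3DMono it became 747, 174 and 0 to 400, with 2 without doublets and 36 with the replicate block. PAX2 turned to 0.81 (AcDop, 2DMono) and -0.31 (AcDop, 3DMono) without doublets. With a tag left out, PAX2 ran from -1.49 to 0.97 and from -1.88 to 0.68 for AcDop and AcMor in 2DMono, and from -0.18 to 0.64 for AcDop in 3DMono.

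Between Vehic tags alone the format comparisons called 3247 (Mono) and 6019 (3DFusi, 2DCocu) genes, and PAX2 was 0.07, PAX8 0.46 and LHX5 0.50 in the latter and PAX5 -0.06 in the former. PAX2 between 3DMono and 2DMono was called with no filter (0.84, adjusted p = 0.00294) and without doublets (1.46). With a tag left out it ran from 0.52 to 1.25 and was called only at 1.25, without 2DMono Vehic 1 (adjusted p = 0.0201). PAX8 there reached an adjusted p between 0.0406 and 0.349. In AcMor tags alone (added) 4159 genes were called between 3DFusi and 2DCocu and LHX1 was -1.41. Under the design-matrix filter PAX2 was -1.91 between 3DFusi and 2DCocu and 0.80 (adjusted p = 0.12) between the Mono arrangements, and LBX1 and, for Mono, SLC6A5 were not tested. That filter moved no other call of the 7 genes.

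Values near 0 changed sign. LHX5 between 3DFusi and 2DCocu was 0.04 with no filter, 0.01 with RLE, 0.02 with DESeq2, 0.05 without doublets and 0.004 under the design-matrix filter. For AcMor in 3DFusi, PAX5 was -0.02 with the block and -0.10 in cells of cluster 5, where SLC6A5 was 0.03 and LHX5 0.17. PAX5 for AcDop in 3DMono was -0.09 without doublets. With a tag left out, LHX5 between 3DFusi and 2DCocu ran from -0.23 to 0.15, and for AcMor in 3DFusi PAX5 ran from -0.61 to 0.55 and PAX8 from -0.90 to 0.09. PAX8 in 2DMono ran from -1.56 to 0.16 for AcDop and from -1.23 to 0.04 for AcMor. In 3DMono, PAX5 (AcDop) ran from -0.42 to 0.39, LHX5 from -0.14 to 1.38 (AcDop) and from -0.60 to 0.92 (AcMor), PAX8 (AcMor) from -1.48 to 0.09 and SLC6A5 (AcMor) from -0.05 to 2.19. The difference of AcMor effects ran from -1.16 to 0.0027 for PAX5. Shares of cells moved to 0.134 points (PAX5, 2DCocu, doublets removed), -0.0455 (PAX8, 2DCocu, thinned to 5000 counts) and 0.326 (PAX5, 3DFusi, thinned). With a tag left out they ran from -0.305 to 0.0491 (PAX5, 2DCocu), from -1.02 to 0.631 (PAX5, 3DFusi) and from -0.57 to 0.108 (PAX8, 3DFusi). The inhibitory-cell comparison called 1389 genes in thinned cells. The top cluster held 94.5% of the PAX2 counts of 2DCocu at resolution 0.4 and 94.6% without doublets. The cause of these changes was not tested. Low counts limit LBX1, PAX5 and PAX8.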
